A study of Mus musculus with 10 samples.

Results

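Tuft cells and ionocytes are rare epithelial cells, marked here by 10 genes: Trpm5, Pou2f3, Chat, Il25, Alox5, Gnat3 and Avil for tuft cells, and Ascl3, Foxi1 and Cftr for ionocytes. The 10 were taken by gene symbol from the 24421 genes of the authors' deposited table, and all 10 were found. The samples were poly(A)-selected RNA of olfactory epithelium from untreated C57BL/6 mice aged 6 months, 6 of the genotype Apoe4 and 4 of the genotype Apoe3, human alleles of the lipid carrier apolipoprotein E, and the comparison asked which transcripts differ between them. The labels do not say how the alleles were introduced, and nothing in them states pooling or the sex of the mice. Depth, estimated from the size factors and the sum of the deposited means, was about 15500000 to 20100000 reads on genes per library in Apoe4 and 14900000 to 19900000 in Apoe3, and all 10 markers were detected.

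Tuft cells carry an apical bundle of microvilli and sense luminal chemicals with the signalling proteins of taste cells. In the nose they include the Trpm5-positive microvillous cells of the olfactory epithelium and the solitary chemosensory cells of respiratory epithelium. They depend on the transcription factor Pou2f3 and release IL-25, leukotrienes and acetylcholine. Ionocytes express the chloride channel Cftr and the vacuolar proton pump and depend on Foxi1, and in the olfactory epithelium Ascl3 marks microvillar cells with these features.

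The sequences at the starts of these genes are shown for the 3 ionocyte markers, which had nearly equal read counts, for Trpm5, the most abundant tuft marker, and for Chat, which carried the E-box described here. Each is the RefSeq window of 300 bases (GRCm38.p6) on the strand of the gene, and capitals mark matches to the TATA motif (TATAAA) or to the E-box CAGCTG, either strand. The windows lie at chr7:109731683-109731982 (minus strand, Ascl3), chr11:34208040-34208339 (minus strand, Foxi1), chr6:18170437-18170736 (plus strand, Cftr), chr7:143094593-143094892 (minus strand, Trpm5) and chr14:32465860-32466159 (minus strand, Chat).
Ascl3: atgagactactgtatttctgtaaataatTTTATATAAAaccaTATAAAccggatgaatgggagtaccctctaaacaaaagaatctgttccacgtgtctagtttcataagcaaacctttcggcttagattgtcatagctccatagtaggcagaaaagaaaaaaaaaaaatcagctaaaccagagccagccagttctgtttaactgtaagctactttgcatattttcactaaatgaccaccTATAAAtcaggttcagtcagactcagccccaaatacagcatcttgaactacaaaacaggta
Foxi1: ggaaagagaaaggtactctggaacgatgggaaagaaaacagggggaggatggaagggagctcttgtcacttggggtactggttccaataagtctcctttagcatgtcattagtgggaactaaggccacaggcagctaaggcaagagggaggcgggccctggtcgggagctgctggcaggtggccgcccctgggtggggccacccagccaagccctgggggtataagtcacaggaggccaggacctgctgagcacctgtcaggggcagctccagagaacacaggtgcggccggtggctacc
Cftr: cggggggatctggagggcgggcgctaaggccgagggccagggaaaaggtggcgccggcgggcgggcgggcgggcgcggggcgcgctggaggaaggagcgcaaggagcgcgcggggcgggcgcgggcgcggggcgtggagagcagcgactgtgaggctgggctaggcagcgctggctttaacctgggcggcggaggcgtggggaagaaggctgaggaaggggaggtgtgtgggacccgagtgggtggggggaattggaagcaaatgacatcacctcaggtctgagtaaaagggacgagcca
Trpm5: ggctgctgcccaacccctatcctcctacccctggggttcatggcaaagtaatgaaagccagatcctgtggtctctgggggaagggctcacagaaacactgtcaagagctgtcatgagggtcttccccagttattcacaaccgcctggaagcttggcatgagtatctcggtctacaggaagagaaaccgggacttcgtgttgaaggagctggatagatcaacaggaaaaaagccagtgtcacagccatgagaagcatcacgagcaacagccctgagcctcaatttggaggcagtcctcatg
Chat: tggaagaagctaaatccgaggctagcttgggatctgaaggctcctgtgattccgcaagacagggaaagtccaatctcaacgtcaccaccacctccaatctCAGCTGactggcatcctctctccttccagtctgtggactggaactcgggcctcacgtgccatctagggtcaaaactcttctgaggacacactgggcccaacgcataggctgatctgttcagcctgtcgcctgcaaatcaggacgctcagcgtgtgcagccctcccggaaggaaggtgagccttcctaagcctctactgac
The 3 ionocyte starts differed in composition. GC content was 36% in Ascl3 with 3 CpG, 60.3% in Foxi1 with 6 CpG and 71.3% in Cftr with 31 CpG, against a median of 52.7% and 7 CpG over 27025 genes. TATAAA stood 4 times in the Ascl3 window, at -218, -208 and -11 from the start and, overlapping the first, at -222 on the other strand, and in no other window of the 8 markers that the RefSeq table held; 14.2% of all genes have it. The E-box stood only in Chat, at -150, and 16.1% of all genes have it. Neither the octamer ATGCAAAT, the textbook motif of POU factors, nor the forkhead motif TGTTTAC was in any of the 8 windows, on either strand, and these occur in 1.75% and 3.55% of all genes. Pou2f3 and Il25 had no entry.

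No marker of either cell type differed between Apoe4 and Apoe3 at an adjusted p under 0.05. Of the 10, 8 passed the authors' limit on low means, and 0 of these 8 were called by the authors' DESeq2 test, against 0.779% of the 16050 genes tested. At an unadjusted p under 0.05 there was 1 of 8, Foxi1, against 10.3% of all genes tested. The 8 tested markers split into 4 with positive and 4 with negative log2 fold changes, and their median was 0.01, against 0.00 over all genes tested. The size of the fold changes was also like that of other genes, with a median absolute log2 fold change of 0.06, against 0.07 over all genes tested. In whole tissue, fewer cells of a type and less RNA per cell cannot be told apart.

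**Figure D1:**
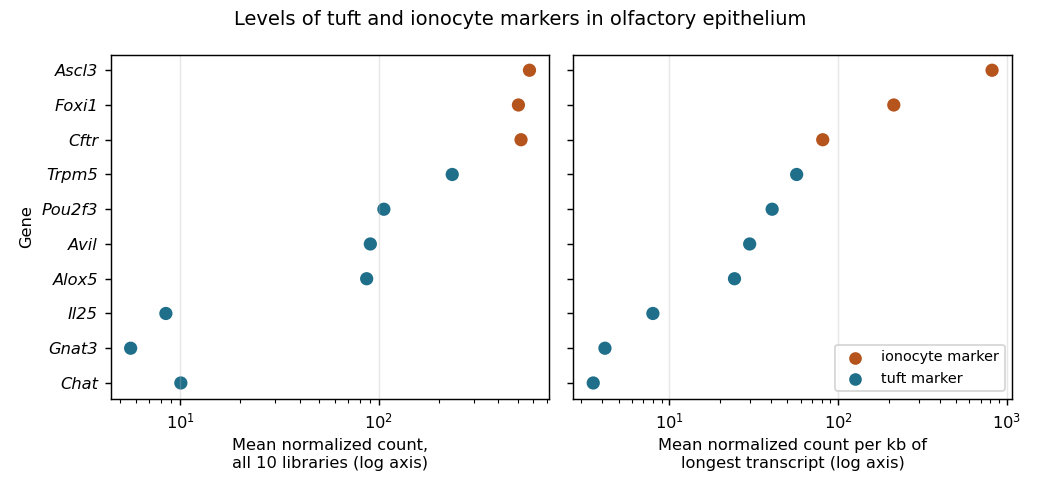
Mean normalized count over all 10 libraries (left) and the same per kilobase of the longest transcript (right), both on log axes, 1 point per marker. The 3 ionocyte markers lie above every tuft marker on both scales, between 504 and 573 counts and between 81.1 and 819 counts per kilobase.

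The ionocyte markers were the most abundant of the 10. Ascl3, a basic helix-loop-helix transcription factor (chromosome 7, 109727465 to 109731726), averaged 573 normalized counts over all libraries in the authors' deposited table. Cftr, the cystic fibrosis chloride channel (chromosome 6, 18170687 to 18322768), averaged 520 there, and Foxi1, the forkhead factor of ionocytes (chromosome 11, 34204338 to 34208089), averaged 504. These levels lie at percentiles 72.1, 70.4 and 69.9 of the table. Per kilobase of transcript the levels spread out, with 819 for Ascl3, 214 for Foxi1 and 81.1 for Cftr, so that Ascl3 stood 3.83 times above Foxi1 and 10.1 times above Cftr. The longest annotated transcript of Ascl3 has 700 bases and that of Cftr 6410, and the order per kilobase rests on these lengths.

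Among tuft markers Trpm5, the cation channel that depolarises the cell (chromosome 7, 143069153 to 143094642), had 56.8 normalized counts per kilobase. Pou2f3 (chromosome 9, 43123939 to 43210369) followed with 40.6, Avil, which encodes the actin-bundling protein advillin (chromosome 10, 127000709 to 127020994), with 29.9 and Alox5, the 5-lipoxygenase that starts leukotriene synthesis (chromosome 6, 116410077 to 116461178), with 24.3. The other 3 markers were lower by a wide step. Il25, the cytokine (chromosome 14, 54932695 to 54935837), had 7.97 normalized counts per kilobase. Gnat3, which encodes gustducin (chromosome 5, 17962549 to 18019834), had 4.14, and Chat, the acetylcholine-making enzyme (chromosome 14, 32408203 to 32465989), had 3.53. The table holds no spread of the levels over libraries, so it does not show which neighbours in this order differ. Slc18a3, the vesicular acetylcholine transporter, lies inside Chat on the same strand. By whole gene span, Trpm5 overlaps Tssc4, Avil overlaps Tsfm and Cftr overlaps the antisense gene Gm15592, each on the opposite strand. Chat also overlaps the antisense gene Gm2990, and Cftr the pseudogene Gm15595 on the same strand. The strand setting is not stated and exons were not compared. Whether reads of such pairs were mixed was not tested.

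**Figure D2:**
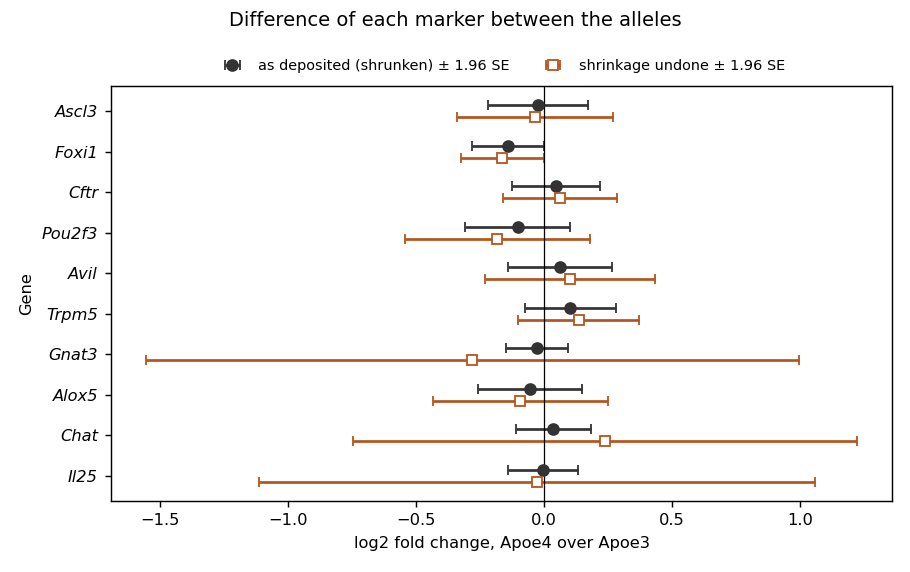
Log2 fold change of each marker, Apoe4 over Apoe3, as deposited by the authors (filled circles) and with the shrinkage approximately undone (open squares), with bars of 1.96 standard errors. The bars of Foxi1 end just below 0, and those of the other 9 markers cross it.

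Foxi1 came closest to a difference. In the authors' deposited table its log2 fold change was -0.14, with a standard error (SE) of 0.07, an unadjusted p of 0.0489 and an adjusted p of 0.485 (DESeq2). Cftr stood at 0.05 (SE 0.09; adjusted p = 0.894), and Ascl3 at -0.02 (SE 0.10; adjusted p = 0.958) in the authors' deposited table. The authors' model pulls folds towards 0. With this shrinkage approximately undone, the Apoe4 over Apoe3 ratio of Foxi1 had a 95% interval of 0.798 to 0.999. That of Cftr was 0.894 to 1.22 and that of Ascl3 0.790 to 1.204.

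The 3 ionocyte markers differed in their deposited errors, although their mean counts were alike. The deposited standard error of Ascl3 was larger than that of 96.4% of the 500 genes tested with the nearest means. That of Cftr exceeded 73.4% of its 500 neighbours, and that of Foxi1 only 8%. The median error in these sets of neighbours was 0.08 in each case. These errors belong to the shrunken folds and do not rank the precision of the 3. Each has 2 solutions with shrinkage undone: the more precise one, used here, gives errors of 0.16 for Ascl3, 0.11 for Cftr and 0.08 for Foxi1, and the less precise one turns the order, with 0.29 for Ascl3, 0.39 for Cftr and 0.54 for Foxi1.

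**Figure D3:**
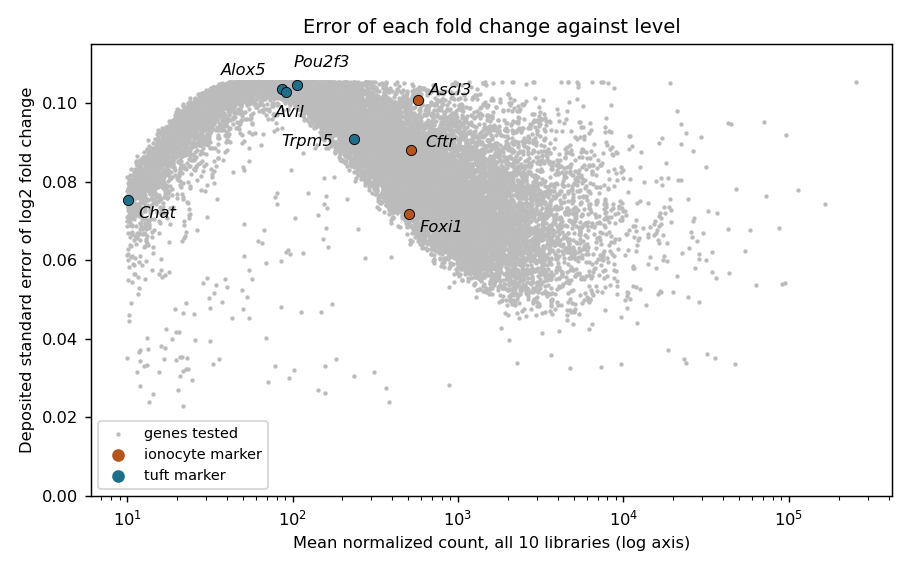
Deposited standard error of the log2 fold change against mean normalized count (log axis) for the 16050 genes tested (grey), with the 8 tested markers in colour. Foxi1 lies at the lower edge of genes with like means and Ascl3 near the upper edge, close to the ceiling of 0.105.

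A list of 23 genes known from ionocytes, the 3 markers included, gave 0 calls in either direction at an adjusted p under 0.05. Its median log2 fold change was 0.04. All 23 were tested, and the smallest adjusted p was 0.469. With 0.779% of all genes tested called, 0 calls in so short a list says little about its genes. The same holds for the other lists with 0 calls. At an unadjusted p under 0.05 the list held 1 positive and 3 negative members of 23, against 10.3% of all genes tested in either direction. Without the 3 markers, Foxi1 among them, it held 1 positive and 2 negative of 20. The authors' deposited table gave -0.15 for Hepacam2, an immunoglobulin-domain adhesion protein (adjusted p = 0.469, DESeq2). Bsnd, the barttin subunit of chloride channels, was at -0.18 (adjusted p = 0.479, DESeq2 of the authors' deposited table). Atp6v1b1, a subunit of the vacuolar proton pump, was at 0.14 there (adjusted p = 0.484, DESeq2). The other proton pump genes went both ways without a call, from -0.08 for Atp6v1c2 to 0.06 for Atp6v0d2 in the authors' deposited table. A list of 8 genes of IP3R3 microvillar cells, of which 7 were tested, also held 0 calls, with a median of 0.05. Its members included Coch at -0.10 (adjusted p = 0.495), Itpr3, the calcium release channel of these cells, at 0.07 (adjusted p = 0.818) and Npy, neuropeptide Y, at 0.11 (adjusted p = 0.754), by DESeq2 in the authors' deposited table.

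The tuft factors Pou2f3 and Avil did not pass either. Pou2f3 was at -0.10 (SE 0.10; adjusted p = 0.776), and Avil at 0.06 (SE 0.10; adjusted p = 0.882), by DESeq2 in the authors' deposited table. With shrinkage undone, the 95% interval of the Apoe4 over Apoe3 ratio was 0.686 to 1.13 for Pou2f3 and 0.853 to 1.35 for Avil. The tuft identity list had 16 of 18 genes tested and 0 calls, with a median log2 fold change of 0.02. Its smallest p belonged to Dclk1, the kinase used to stain tuft cells, which neurons also express, at 0.20 in the authors' deposited table (DESeq2 adjusted p = 0.304). Next came Spib, an ETS factor, at -0.19, Sox9, a factor also of glands, at 0.14, and Vav1, an exchange factor of leukocytes and tuft cells, at 0.16, with adjusted p from 0.513 to 0.587 by DESeq2 in the authors' deposited table.

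Of the signalling chain, Trpm5 stood at 0.10 (SE 0.09) in the authors' deposited table (DESeq2 adjusted p = 0.740), and its ratio with shrinkage undone had a 95% interval of 0.932 to 1.29. Of the taste-type transduction list, 8 of 13 genes were tested, 0 were called and the median was 0.03. Gng13, a G protein subunit that olfactory neurons also make, was at -0.12 (adjusted p = 0.689, DESeq2) in the authors' deposited table, at a mean of 4263 normalized counts. Plcb2, the phospholipase of this chain, averaged 37.7 normalized counts with a log2 fold change of -0.00 (adjusted p = 0.999, DESeq2) in the same table. Rgs21, a regulator found in taste cells, had 1 read in all 10 libraries, and Ffar3 had a mean of 0.

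Gnat3, the G protein subunit at the head of that chain, was too low for the authors' adjusted test, but its reads could be solved for every library from the digits of its mean. In order of increasing size factor, the 6 Apoe4 libraries held 1, 9, 5, 3, 5 and 9 reads and the 4 Apoe3 libraries held 4, 10, 4 and 7. The groups overlapped over most of their range, and every library held at least 1 read. The mean was 5.17 ± 3.04 normalized counts in Apoe4 and 6.34 ± 3.20 in Apoe3 (SD, n = 6 and n = 4), which differed by less than the spread (exact permutation test, two-sided, p = 0.571, adjusted over the 2 markers so tested p = 0.933). The smallest p that these 210 arrangements allow is 0.00476. The log2 ratio of the means was -0.29, and the deposited fold with its shrinkage undone was -0.28.

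Il25, through which tuft cells act on type 2 lymphocytes, could be solved in the same way. Reads numbered 7, 9, 8, 3, 13 and 11 in the Apoe4 libraries and 10, 13, 3 and 7 in the Apoe3 libraries, in the same order. The Apoe4 libraries lay inside the range of the Apoe3 libraries on the normalized scale. The mean was 8.36 ± 3.11 normalized counts in Apoe4 and 8.67 ± 5.17 in Apoe3 (SD, n = 6 and n = 4; exact permutation test, two-sided, p = 0.933, adjusted p = 0.933). With shrinkage undone, the 95% interval of the Apoe4 over Apoe3 ratio was 0.462 to 2.09 for Il25 and 0.340 to 1.99 for Gnat3, so a higher as well as a lower level in Apoe4 is compatible with these data.

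**Figure D4:**
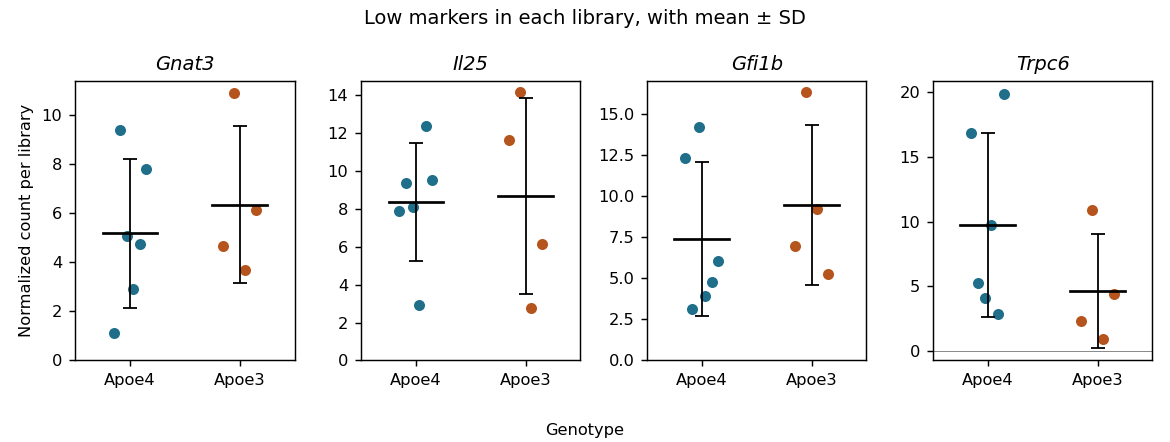
Normalized counts per library of Gnat3, Il25, Gfi1b and Trpc6, 1 point per library, Apoe4 left of Apoe3, with mean and SD. The groups overlap in all 4 panels, and Trpc6 has its 2 highest values in Apoe4.

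Around Il25, 11 of 16 genes of IL-25 and type 2 signalling were tested and 0 were called, with a median log2 fold change of -0.00. Stat6, the factor activated by IL-4 and IL-13, was at 0.18 in the authors' deposited table (DESeq2 adjusted p = 0.279), and Il33, an alarmin of epithelia, at -0.10 (adjusted p = 0.556, DESeq2). Il17rb, a chain of the IL-25 receptor, was at -0.06 (adjusted p = 0.883, DESeq2 of the authors' deposited table). The type 2 cytokines were near the floor, with 4 reads of Il13, 14 of Il4 and 10 of Il5 over all 10 libraries. Tslp, another epithelial alarmin, had 1, 0, 4, 2, 0 and 0 reads in Apoe4 and 7, 3, 5 and 4 in Apoe3. Its values overlapped between the groups, and the authors' deposited table gives it an unadjusted p of 0.0429 (DESeq2) and no adjusted one.

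The mediator enzymes showed no call. Alox5 was at -0.05 (SE 0.10) in the authors' deposited table (DESeq2 adjusted p = 0.895), and its ratio with shrinkage undone had a 95% interval of 0.740 to 1.19. Of 14 genes of leukotriene and prostaglandin synthesis, 12 were tested and 0 called, against 0.779% of all genes tested. Their median was -0.04. Cysltr1, a leukotriene receptor, was at -0.23 (adjusted p = 0.414) and Ltc4s, which makes leukotriene C4, at -0.14 (adjusted p = 0.666), by DESeq2 in the authors' deposited table. Ptgs2, an inducible cyclooxygenase, was at 0.11 (adjusted p = 0.515) and Pla2g4a, which frees arachidonic acid, at 0.15 (adjusted p = 0.614), by DESeq2 in that deposited table.

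Chat had a mean of 10.1 normalized counts, just above the authors' limit for testing, and stood at 0.04 (SE 0.08) in the authors' deposited table (DESeq2 adjusted p = 0.907). Its ratio with shrinkage undone had a wide 95% interval, 0.597 to 2.33. The digits of its mean allowed 6 sets of reads, so none is given. Slc18a3, which loads acetylcholine into vesicles and shares the locus, held 0, 0, 0, 5, 1 and 0 reads in Apoe4 and 0, 0, 0 and 3 in Apoe3. Slc5a7, the choline transporter, held 4, 3, 0, 2, 6 and 1 reads in Apoe4 and 2, 8, 8 and 3 in Apoe3, and these values overlapped. In the acetylcholine list 9 of 12 genes were tested and 0 called, with a median of 0.04. Chrm3, the muscarinic M3 receptor, had the smallest p, at 0.23 in the authors' deposited table (DESeq2 adjusted p = 0.389), followed by Bche, an esterase, at 0.12 (adjusted p = 0.718, DESeq2).

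Low genes that mark the same cells were read per library too. Gfi1b, a tuft cell factor, held 11, 3, 14, 4, 5 and 7 reads in Apoe4 and 6, 15, 10 and 6 in Apoe3. Trpc6, a channel of IP3R3 microvillar cells, held 15, 5, 4, 10, 3 and 23 reads in Apoe4 and 2, 10, 1 and 5 in Apoe3. Both genes overlapped between the groups. For Trpc6 the mean was 9.76 ± 7.12 normalized counts in Apoe4 and 4.63 ± 4.41 in Apoe3 (SD, n = 6 and n = 4), and the authors' deposited table gives an unadjusted p of 0.160 from DESeq2.

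**Figure D5:**
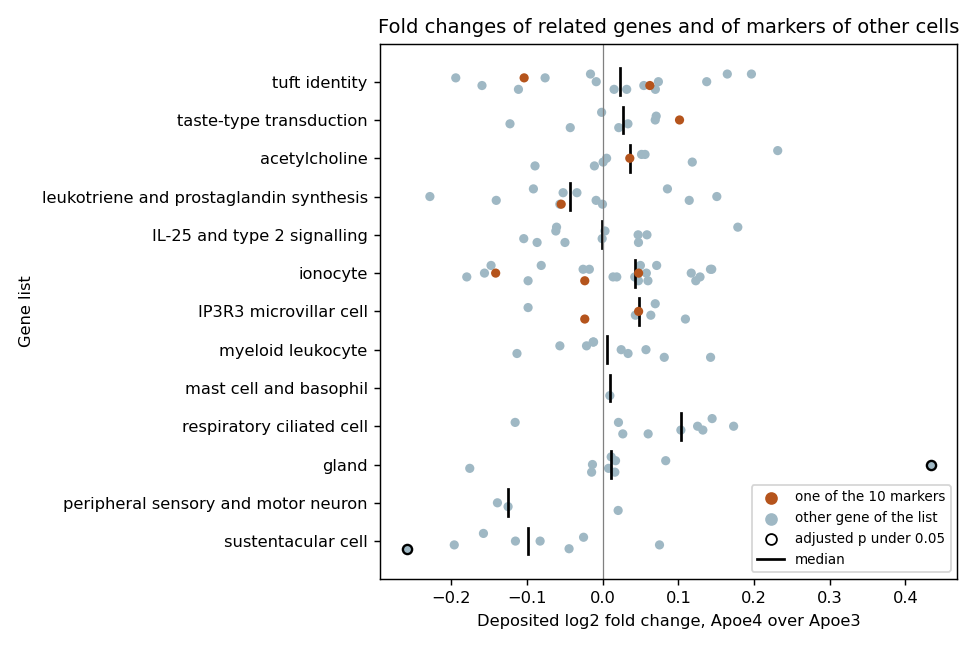
Deposited log2 fold change, Apoe4 over Apoe3, of every tested gene in each list, with the 8 tested markers in orange, medians as bars and called genes outlined. Gnat3 and Il25 had no adjusted p and are not shown. The outlined genes are Bpifb1 of the gland list at 0.43 and Cbr2 of the sustentacular list at -0.26.

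Several markers are also made by other cells, whose own markers were read beside them. Alox5 is a leukocyte gene as well, and of 10 myeloid markers, all tested, 0 were called with a median log2 fold change of 0.01. Most mast cell genes were low, with 6 of the 7 on their list under the limit for testing. The tested one, Kit, averaged 327 normalized counts and stood at 0.01 (adjusted p = 0.983, DESeq2) in the authors' deposited table. The highest mean among the other 6 there was 6.73, for Mcpt4, and which cells made the Kit reads was not tested. Of the low 6, Cma1, Cpa3 and Fcer1a had negative folds with unadjusted p of 0.155, 0.418 and 0.298 there (DESeq2). Ms4a2 went the other way, with 5 reads in Apoe4 and 1 in Apoe3. Mcpt4, a mast cell protease, held 3, 6, 2, 0, 2 and 2 reads in Apoe4 and 11, 15, 22 and 3 in Apoe3, with an unadjusted p of 0.00118 (DESeq2) and no adjusted p in the authors' deposited table. Tpsb2, a mast cell tryptase, held 4, 2, 0, 2, 1 and 2 reads in Apoe4 and 5, 16, 9 and 1 in Apoe3, with an unadjusted p of 0.0145 (DESeq2) and no adjusted p in that deposited table. The 6 low mast cell genes, without Kit, together had 9.12 to 22.9 normalized counts in Apoe4, with a median of 16.2. In Apoe3 they had 7.89 to 63.2, with a median of 45.2. Their mean sum was 16.0 ± 5.11 in Apoe4 and 40.4 ± 25.8 in Apoe3 (SD, n = 6 and n = 4). Of the Apoe3 libraries 1 lay below every Apoe4 library and the other 3 lay above every one, and the part of these genes in the values of Alox5 and Il25 was not tested. Avil is also a gene of sensory neurons, and Scn10a, their sodium channel, held 6 reads in Apoe4 and 3 in Apoe3.

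Ciliated, gland and sustentacular cells were present in the tissue as well. All 9 respiratory ciliated markers were tested and 0 were called, with 8 positive and a median of 0.10. In the gland list 1 of 9 tested genes, Bpifb1, rose (0.43, adjusted p = 0.00310, DESeq2 of the authors' deposited table), and in the sustentacular list 1 of 8, Cbr2, fell (-0.26, adjusted p = 0.0421, same source), against 0.779% of all genes tested in either direction. The sustentacular list had 7 negative and 1 positive folds and a median of -0.10, and 4 of its 8 genes had negative folds at an unadjusted p under 0.05, against 10.3% of all genes tested in either direction. In the ciliated list 2 of 9 had positive folds at that level. The part of these cells in the marker values was not tested.

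All 10 markers lie on autosomes. Xist had a log2 fold change of 6.41 and the Y-linked Eif2s3y one of -3.72 in the authors' deposited table, so sex and genotype cannot be told apart here. Trpm5 and Ascl3 share chromosome 7 with Apoe, at distances of 123 and 90.03 Mb. The mouse Apoe gene was at -0.16 (adjusted p = 0.579, DESeq2 of the authors' deposited table). Whether reads of the human alleles are counted in it was not tested. Of the 10 markers, Trpm5, Il25, Alox5, Avil and Cftr had 1 called gene within 2.5 Mb and the others none. The share of all genes with a called gene that near was not computed, so this count has no background beside it. The closest called gene was Olfr211, an odorant receptor gene 0.0279 Mb from Alox5. Olfr211 rose with a log2 fold change of 0.78 (DESeq2 adjusted p = 2.76e-13) in the authors' deposited table.

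The test statistic rose with transcript length across genes (Spearman rho = 0.415 over 15964 genes, a description across genes that are not replicates of each other). Ascl3 is short and Cftr long, and with this trend removed Ascl3 stood at 0.07 and Cftr at -0.01, on the other side of 0 from their deposited folds. Foxi1 then stood at -0.12 with an adjusted p of 0.787 on the DESeq2 statistic. The directions and medians given for the gene lists are those of the deposited folds, with the trend left in. The part of transcript length in them was not tested.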

How the data were processed

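Olfactory epithelium of 6 Apoe4 and 4 Apoe3 mice was sequenced as poly(A)-selected RNA. STAR, featureCounts, DESeq2 and GRCm38 are named in the submitters' processing notes; the sources used here do not give versions, the strand setting or the annotation. One table was deposited by the authors, with no columns for single libraries: a signal (mean normalized count), a log2 fold change with its error, a score (the Wald statistic), and a p-value with its adjusted p-value. The authors adjusted over 16050 genes and marked 8314 with means up to 9.99 as low.

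The table names no direction. Genes with a single read in 1 library have means at 10 levels, set by the size factor of that library; 6 carried positive and 4 negative folds, so positive is higher in Apoe4, the group of 6. Approximate depth per library was its size factor times the sum of the deposited means. The numbered replicate behind a level stays unknown.

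Means are printed with 15 significant digits. For genes with a mean below about 10, all sets of whole reads that give the printed mean from the 10 size factors were searched, and reads are given only where exactly 1 set did so. On 150 genes with means of 3 to 6, 150 had 1 set, as did 144 of 150 at 6 to 9; in 123 and 111 genes with a log2 ratio of at least 0.2 the direction was that of the deposited fold in 100%. Means altered on purpose had a solution in 0% of genes at 3 to 6, the range of Gnat3, and in 11.3% at 6 to 9, the range of Il25, so a single set is less firm evidence there. Solved markers were compared by an exact permutation test over libraries.

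Shrinkage was undone approximately from the ratio of each error to its ceiling of 0.105. Each error has 2 solutions; the more precise was used at means from 66.3 upward and the less precise below. Transcript length is that of the longest GENCODE vM21 transcript. The trend with length was a lowess curve (fraction 0.3). Python 3.11.15, scipy 1.17.1 and statsmodels 0.14.6 were used. The design called for the authors' test where counts per library are not at hand, which applied. Described were the 10 markers, called genes of each list, and up to 4 genes of a list with the smallest p, besides defining markers of other cells. Beyond that rule, all mast cell genes, the pump genes, Plcb2, Il17rb, the type 2 cytokines, Gfi1b and Slc18a3 were chosen after their values were seen. So were Rgs21, Ffar3, Scn10a, Calhm1, Oxgr1 and Olfr211. Markers and lists were chosen with earlier results of these data known. The ionocyte, IP3R3, tuft identity, taste-type, acetylcholine, leukotriene and IL-25 lists hold the markers that belong to them. The recovery and the undone shrinkage were tested on simulated data. For the shrinkage, the nearer of the 2 solutions to the known answer was scored. The choice between the 2 solutions by mean was therefore not tested. Alternatives were no filter and a mean of at least 50, no X and Y genes, the length trend removed, and a test against a fold of 1.2.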

Additional observations from a re-analysis of the deposited data

Results flagged for a closer look

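Among genes solved per library, single libraries stood far from the others of their genotype in 7 cases, all of them low genes of the surrounding lists and none of the 10 markers; chance flags about 1 in 20 groups, and groups that are otherwise at 0 are flagged by few reads. Slc18a3 reached 4.87 normalized counts in 1 Apoe4 library and 2.63 in 1 Apoe3 library, with 0 or 1 read in each of the others. Il13 reached 4.05 in 1 Apoe4 library, which held all 4 of its reads. Calhm1 reached 0.865 in 1 Apoe4 library, and Rgs21 reached 1.16, Oxgr1 0.921 and Ms4a2 0.921 in 1 Apoe3 library each, all from a single read.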

How the results depend on the processing

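No marker passed an adjusted p of 0.05 in any of 5 alternatives: the count stayed 0 with no filter on the mean, with means of at least 50, without X and Y genes, with the length trend removed and against a fold of 1.2. The smallest adjusted p of a marker was that of Foxi1 in the first 4 of these, at 0.597 with no filter, 0.456 with means of at least 50, 0.486 without X and Y genes and 0.787 with the trend removed, and 1 against a fold of 1.2. Of these alternatives, only the removed length trend gave the markers new statistics. No filter, means of at least 50 and no X and Y genes adjusted the deposited p-values again, of which the smallest was 0.0489 (DESeq2, Foxi1). Every tested marker had a deposited fold smaller than 1.2 in either direction, which fixed the result against that fold. Outside the length setting, the count of 0 was thus set by the deposited values and adds no support. With the length trend removed Ascl3 was at 0.0663 and Cftr at -0.0145, opposite in sign to the deposited folds. Reads as counted put Il25 at a difference of 0.25 reads, Apoe4 minus Apoe3, also opposite in sign. Leaving out 1 library at a time moved the difference in normalized counts between -2.29 and 1.51 for Il25 and between -2.05 and 0.35 for Gnat3, so neither sign was stable. Without the Apoe3 library that held 13 reads of Il25 and 10 of Gnat3, the differences were 1.51 and 0.347, and that of Il25 was also positive without 1 other Apoe3 library (0.674) and without 1 Apoe4 library (0.772). The other 71 values, the 5 counts included, kept their sign and, where tested, their side of the threshold. Many of them could not change sign, because their setting kept the deposited fold or only scaled it. Only the removed length trend, the reads as counted and the left-out libraries could turn a sign, and all 7 reversals came from these. With the less precise solution of the error, the 95% intervals of the log2 fold change would widen to -0.63 to 0.49 for Ascl3, -0.71 to 0.23 for Pou2f3, -0.36 to 0.67 for Avil, -0.63 to 0.36 for Alox5, -0.31 to 1.14 for Trpm5, -0.56 to 0.98 for Cftr and -2.11 to -0.00486 for Foxi1. Mcpt4 had an adjusted p of 0.135 with no filter. No paired analysis was possible because the table holds no values by numbered replicate, and leaving out replicates could not be done for markers with higher means. Depth limits Chat, Gnat3 and Il25.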
